A study of Saccharomyces cerevisiae with 159 samples.

Results

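The cdc20-1 metaphase arrest was followed in 9 of the 159 RNA-seq libraries of a budding yeast (Saccharomyces cerevisiae) series that measured the transcriptome of cell cycle-arrested cells. The 9 libraries are those of the cdc20-1 arrest experiment, 5 of cdc20-1 cells at 2, 4, 6, 8 and 9 h at 37 °C and 4 of WT cells at 2, 4, 6 and 9 h. Each strain and time has a single library, so the 4 hours at which both strains were sampled served as matched pairs, and the cdc20-1 library at 8 h entered no fit of its own. cdc20-1 (A937) was labelled MATalpha, with cdc20-1 beside mutant ura3 and trp1, leu2 and his3, ade2 and can1. WT (A2587) was labelled MATa, and its listed alleles are ade2-1 and leu2-3, then ura3 and trp1-1, then his3-11,15 and can1-100, followed by the markers GAL and psi+. Both strains therefore share auxotrophies for uracil, tryptophan, leucine, histidine and adenine, and each is a single named strain. Cells were grown in rich medium (YEPD) at a permissive temperature and shifted to 37 °C, and WT cultures were kept cycling by dilution. The labels do not say whether the libraries of a strain came from 1 culture, so the p-values below measure how steadily a difference held over the 4 times and not how it varies between independent cultures.

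Cdc20 is the activator that lets the anaphase-promoting complex (APC/C), a ubiquitin ligase, mark securin and mitotic cyclins for destruction. Securin (Pds1) holds separase (Esp1) inactive, and separase opens the cohesin rings that join sister chromatids, so cells that lose Cdc20 function at the restrictive temperature stop in metaphase with high mitotic kinase activity while they keep growing. The budding yeast cycle is also a transcriptional one. The CLB2 cluster is transcribed in G2 and M phase, the transcription factor Swi5 enters the nucleus at mitotic exit, when cells switch on genes of the next G1 phase and of daughter cell separation, and histone genes are transcribed in S phase. Stressed or slowly growing yeast cells in addition share an environmental stress response, in which stress genes with the element AGGGG upstream go up and genes for ribosomal proteins and ribosome assembly go down.

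Promoters of members that stand at both ends of the results are shown here, because the windows hold the letters by which these genes are usually grouped. Each is the 300 bases that begin 400 bases before the start codon, read from the R64 (sacCer3) genome sequence of RefSeq on the strand of the gene, in lower case. Capitals mark AGGGG, the stress response element, on either strand in the first 3 windows and ACCAGC, a core recognised by Swi5, on either strand in the last 2. The windows lie at chrVI:106856-107155 (plus strand, HSP12), chrVII:654234-654533 (plus strand, CTT1), chrVII:581537-581836 (minus strand, NQM1), chrV:409164-409463 (minus strand, DSE1) and chrVIII:385110-385409 (plus strand, DSE2). The HSP12 window also covers part of the open reading frame YFL015C.
HSP12: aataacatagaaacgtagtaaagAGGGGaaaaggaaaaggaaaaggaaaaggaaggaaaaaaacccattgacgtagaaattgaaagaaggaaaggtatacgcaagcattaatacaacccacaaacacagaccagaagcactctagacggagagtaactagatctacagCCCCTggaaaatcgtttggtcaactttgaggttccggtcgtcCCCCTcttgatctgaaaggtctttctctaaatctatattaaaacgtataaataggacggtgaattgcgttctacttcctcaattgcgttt
CTT1: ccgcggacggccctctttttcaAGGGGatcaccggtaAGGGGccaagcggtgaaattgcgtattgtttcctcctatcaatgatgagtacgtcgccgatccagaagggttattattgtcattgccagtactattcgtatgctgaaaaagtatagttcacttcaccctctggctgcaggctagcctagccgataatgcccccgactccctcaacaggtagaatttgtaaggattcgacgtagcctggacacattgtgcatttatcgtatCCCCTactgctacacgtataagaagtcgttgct
NQM1: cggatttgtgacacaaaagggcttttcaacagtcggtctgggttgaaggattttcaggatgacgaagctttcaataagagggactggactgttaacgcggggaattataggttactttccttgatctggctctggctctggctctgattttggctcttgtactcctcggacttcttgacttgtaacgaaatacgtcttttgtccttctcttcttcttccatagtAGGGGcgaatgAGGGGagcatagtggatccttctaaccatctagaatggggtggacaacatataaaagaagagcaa
DSE1: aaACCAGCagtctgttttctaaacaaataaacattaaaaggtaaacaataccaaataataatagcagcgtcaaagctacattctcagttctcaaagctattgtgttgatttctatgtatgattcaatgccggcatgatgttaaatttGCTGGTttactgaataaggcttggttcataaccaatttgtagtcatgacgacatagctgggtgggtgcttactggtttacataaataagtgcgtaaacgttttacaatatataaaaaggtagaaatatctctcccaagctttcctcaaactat
DSE2: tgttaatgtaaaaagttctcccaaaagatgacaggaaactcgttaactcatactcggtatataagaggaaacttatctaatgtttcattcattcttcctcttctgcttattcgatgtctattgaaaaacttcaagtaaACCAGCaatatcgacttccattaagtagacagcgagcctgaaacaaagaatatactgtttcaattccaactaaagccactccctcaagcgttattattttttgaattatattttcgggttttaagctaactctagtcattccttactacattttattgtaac

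The libraries of the experiment are described in the units deposited by the authors, log2 of TPM (transcript abundance scaled to a fixed total per library) with an offset of 1, which were turned back to TPM and rescaled so that the nuclear open reading frames of a library sum to 1000000. TPM keeps no read depth, so no counting error can be given for single values. Ribosomal RNA took between 0.585% and 2.53% of the deposited TPM in the 9 libraries, and the highest share was in cdc20-1 at 9 h. Of the 6685 nuclear open reading frames, 6441 had a mean of at least 1 on the log2(TPM + 1) scale and were tested. Differences are given on that log2 scale, cdc20-1 minus WT, with their standard error over 4 pairs and the limma p-value adjusted over all tested genes.

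The mating type of each library was checked first, because cdc20-1 and WT were labelled with opposite types. STE2, the receptor for alpha factor that only MATa cells make, had 11.5 to 22.7 TPM in the 5 cdc20-1 libraries and 276 to 336 TPM in the 4 WT libraries. MF(ALPHA)1, which encodes alpha factor, had 1004 to 1791 TPM in cdc20-1 and 0.383 to 2.20 TPM in WT. The groups are far apart for both genes, and each strain shows the type on its label. Among the 8 genes listed as a-specific, 6 fell, with log2 differences from -5.10 (MFA2) to -2.44 (STE6), namely MFA1, MFA2, STE2, STE6, BAR1 and AGA2. ASG7 did not pass the test at 0.14 (SE 0.43, adjusted p = 0.79), and AFB1 was higher by 3.43. AFB1 encodes a barrier to a-factor and is known from MATalpha cells, so its place in that list was a mistake that was left as it stood. All 6 alpha-specific genes rose, by 1.19 (SAG1, the agglutinin) to 9.33 (MF(ALPHA)1). These genes are not described further, and they stay in the counts over all genes. The cdc20-1 allele, the mating type and the rest of the strain background cannot be told apart in this comparison.

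**Figure D1:**
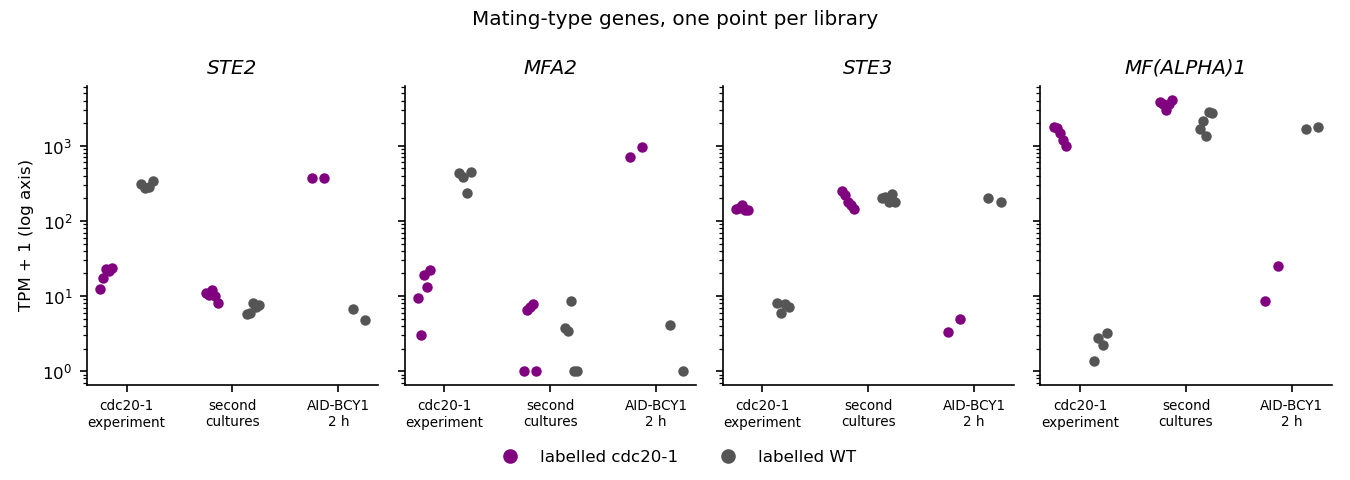
TPM + 1 (log axis) of 2 a-specific genes (STE2 and MFA2) and 2 alpha-specific genes (STE3 and MF(ALPHA)1), 1 point per library, in the cdc20-1 experiment, the second cultures and the AID-BCY1 strains at 2 h. STE2 lay at 11.5 to 22.7 TPM in cdc20-1 and 276 to 336 TPM in WT of the cdc20-1 experiment, whereas it had a median of 6.19 TPM in the libraries labelled WT in the second cultures and 3.77 and 5.62 TPM in those labelled WT AID-BCY1.

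The same check went against labels in the Bcy1 series, which holds other cultures labelled with these strains and is used further on. Its WT libraries were labelled with the same MATa strain, yet the a-specific STE2 was nearly silent in them. STE2 had 7.10 to 11.2 TPM in the 5 matched cdc20-1 libraries and a median of 6.19 TPM (lowest 4.71) in the 5 libraries labelled WT, and MF(ALPHA)1 had 3025 to 4125 TPM in cdc20-1 and 1347 to 2801 TPM in the libraries labelled WT. The pattern of these libraries labelled WT is that of MATalpha cells. The AID-BCY1 strains carry an auxin-degradable Bcy1 under the RFA1 promoter, and osTIR under the TEF1 promoter with the marker LEU2 at leu2. At 2 h LEU2 had 0 and 1.34 TPM in cdc20-1 AID-BCY1 (A40499) and 1.61 and 0.317 TPM in WT AID-BCY1 (A40439). It had 72.3 to 152.7 TPM in the libraries of the cdc20-1 experiment, and the reason was not tested. Both AID-BCY1 strains were labelled MATa. MF(ALPHA)1 had 7.54 and 24.1 TPM in cdc20-1 AID-BCY1, against 1654 and 1805 TPM in the libraries labelled WT AID-BCY1. By expression, cdc20-1 was thus set against WT as alpha against a in the main comparison, as alpha against alpha in the second cultures and as a against alpha in the AID-BCY1 strains.

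Across the 4 matched times cdc20-1 and WT differed in most of the transcriptome. Of 6441 genes, 2947 were higher and 1219 were lower in cdc20-1 than in WT, which is 45.8% and 18.9% of the genes tested and 64.7% together (limma, adjusted p under 0.05). In 60% of genes the 4 cdc20-1 libraries did not overlap the 4 WT libraries. At least 2-fold differences among the called genes numbered 1393 higher (21.6%) and 279 lower (4.33%). Taken hour by hour, with 1 library a strain and no test, the share of genes at least 2-fold higher in cdc20-1 was 16.4%, 23.1%, 24.7% and 28.8% at 2, 4, 6 and 9 h, and the share at least 2-fold lower was 3.76%, 5.62%, 4.91% and 7.39%. Set against this, the WT libraries of the cdc20-1 experiment and those of the cdc15-2 experiment at the same hours, the same strain in a separate experiment, differed in 0 of 6312 genes by the same test, with 834 at an unadjusted p under 0.05.

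The split into higher and lower depends on what the libraries are scaled to. The median difference over all tested genes was 0.29, and it was 0.23, 0.28, 0.30 and 0.33 at 2, 4, 6 and 9 h. Over the same hours the 137 ribosomal protein genes took 15.3%, 9.39%, 8.76% and 8.24% of the total in cdc20-1 and 29.3%, 27.9%, 25.6% and 27.1% in WT. All other genes together were then larger in cdc20-1 by 0.26, 0.33, 0.30 and 0.33 on the log2 scale, close to the shift of the median. With each library centred on its median, 1907 genes were higher (29.6%) and 2260 lower (35.1%), and rescaling over the genes other than ribosomal proteins gave 2057 and 2099. Values below are not centred, so a difference near 0.3 is that of a typical gene, and counts after centring are given beside the groups whose balance of higher and lower genes they shift. A group's counts are to be read against the 45.8% higher and 18.9% lower among all genes, or 29.6% and 35.1% after centring.

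CDC20 itself was higher in the arrested cells, with 96.0, 125, 153 and 164 TPM in cdc20-1 at 2, 4, 6 and 9 h and 35.8, 29.9, 35.2 and 28.6 TPM in WT. It rose by 2.00 on the log2 scale (SE 0.17, adjusted p = 0.000152). The mutation impairs the protein, so the transcript is no check of the label. Separase showed the same picture, and ESP1 had 73.1, 65.2, 67.5 and 78.4 TPM in cdc20-1, against 22.2, 22.0, 25.9 and 23.5 TPM in WT (1.56, SE 0.10, adjusted p = 5.8e-05). The securin gene PDS1 did not pass the test. Its TPM values were 24.3, 32.1, 43.5 and 49.1 in cdc20-1 and 39.3, 30.3, 37.2 and 36.4 in WT, and the difference of 0.01 has a 95% interval from -0.43 to 0.45. CDH1, the APC/C activator of late mitosis and G1, rose by 0.79, and AMA1, the activator used in meiosis, by 2.65, although AMA1 stayed at 41.8 TPM or below. Of the 13 APC/C subunits 8 rose and 0 fell, with APC1, the largest subunit, at 1.13 and CDC27 at 0.42, and after centring 3 were higher and 2 lower. BUB1, a spindle checkpoint kinase, rose by 1.64, with 19.5 to 44.0 TPM in cdc20-1 at the matched times and 8.17 to 11.4 TPM in WT. Of the 11 checkpoint and chromosomal passenger genes 7 rose (4 after centring), MAD1 by 0.75 and the passenger subunit SLI15 by 1.01 among them, and SGO1, which guards centromeric cohesion, fell by 0.37.

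The mitotic cyclins did not move together. CLB1 had 309.7, 235, 291 and 272 TPM in cdc20-1 and 98.0, 95.5, 96.9 and 99.5 TPM in WT, a rise of 1.49 (SE 0.09, adjusted p = 5.08e-05) with no overlap between the strains. CLB2, its close relative, had 62.8, 43.4, 45.7 and 45.3 TPM in cdc20-1 and 52.8, 47.1, 44.8 and 50.7 TPM in WT, and its difference of 0.00 spans -0.24 to 0.24 in the 95% interval. CLB3 fell by 0.28 (SE 0.10, adjusted p = 0.0386), and CLB4 at 0.37 and CLB5 at 0.33 did not pass. CLB6, an S-phase cyclin, rose by 1.92, with 31.3 to 55.5 TPM in cdc20-1 and 7.75 to 12.5 TPM in WT. The G1 cyclins CLN1, CLN2 and CLN3 lay at -0.01, -0.14 and 0.17, none of them past the test. After centring CLB2 and CLN1 were called lower, as CLB3 was.

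The CLB2 cluster as a whole was higher, and 22 of its 30 genes rose and 2 fell, with a median of 0.65 against 0.29 for all genes. After centring 15 were higher and 6 lower. DBF2, a kinase of the mitotic exit network, went furthest, with 444, 714, 780.3 and 805 TPM in cdc20-1 and 59.6, 59.4, 59.5 and 53.2 TPM in WT, a rise of 3.51 (SE 0.17, adjusted p = 2.81e-05). SWI5, which encodes the transcription factor that enters the nucleus at mitotic exit, also rose. It had 122, 135, 139.6 and 151 TPM in cdc20-1 and 48.0, 51.6, 68.5 and 52.5 TPM in WT. CDC5, the polo kinase, rose by 0.28, no more than a typical gene and with its sign turned after centring (-0.07), and HST3, a histone deacetylase, by 1.26. In the mitotic exit network and its early branch 9 of 16 genes rose and 3 fell, and after centring 5 were higher and 6 lower. Those that rose include MOB1, the partner of Dbf2, with 159 to 202 TPM in cdc20-1 at the matched times and 71.6 to 84.5 TPM in WT, and SPO12, by 1.18, while NET1, the nucleolar anchor of the phosphatase Cdc14, fell by 0.41 and CDC14 lay at -0.18.

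Genes for the separation of daughter cells from their mothers were among the lowest genes of the experiment. DSE2, a daughter-specific wall protein, had 15.7, 23.8, 37.5 and 41.3 TPM in cdc20-1 and 329, 348, 346 and 374 TPM in WT, and fell by 3.61 (SE 0.20, adjusted p = 3.94e-05). DSE1 had 11.2, 12.9, 17.1 and 26.0 TPM in cdc20-1, against 157, 192, 182 and 201 TPM in WT, and fell by 3.43 (SE 0.16). In a bulk library, fewer cells that express a gene and less RNA per cell cannot be told apart. The glucanase genes DSE4 and SCW11 fell by 2.70 and fell by 1.96, and the chitinase gene CTS1, whose enzyme cuts the septum, fell by 1.85. Other genes transcribed around mitotic exit were higher. SIC1, the inhibitor of Clb kinase, had 102, 238, 227 and 211 TPM in cdc20-1 and 95.3, 102, 98.7 and 102 TPM in WT, close to each other at 2 h and apart from 4 h on (0.88, SE 0.20, adjusted p = 0.00722). ASH1, a daughter-specific repressor, rose by 0.83 and PIR3, a cell wall protein, by 4.58. The letters ACCAGC, marked in the DSE1 and DSE2 windows above, stand in 7.71% of all 6005 windows of this length.

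**Figure D2:**
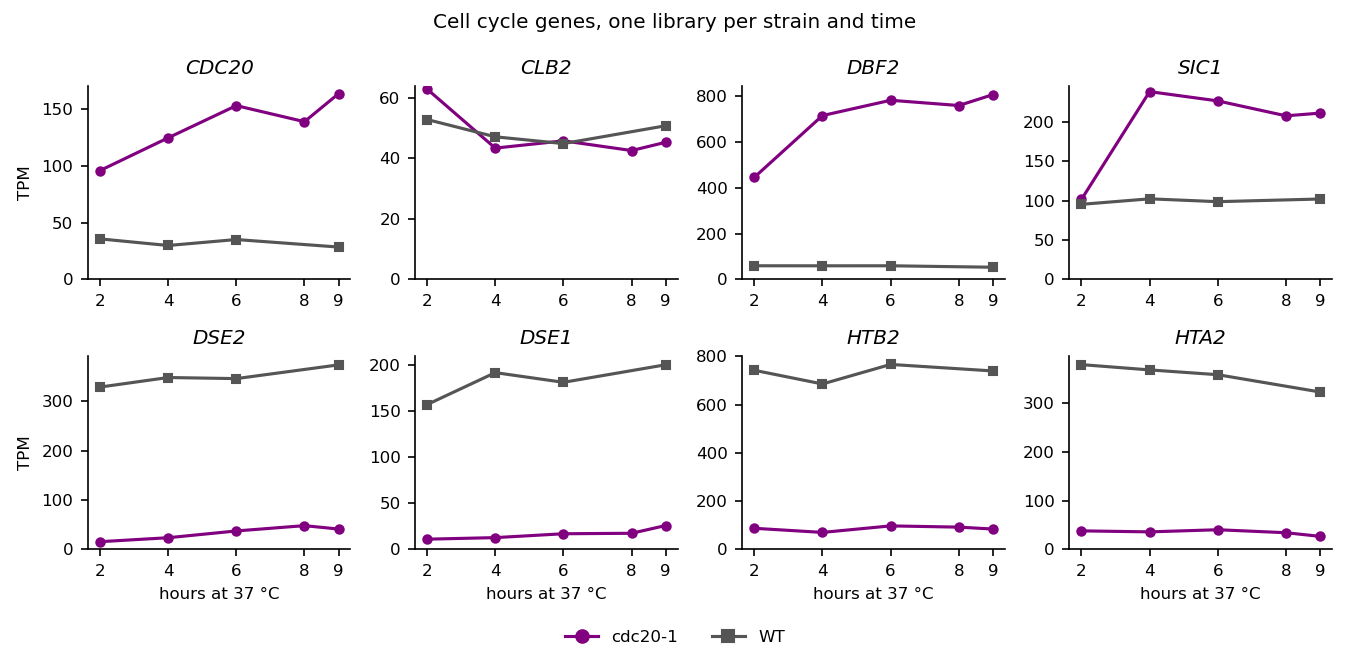
TPM against hours at 37 °C for 8 cell cycle genes, 1 library per strain and time, with cdc20-1 at 5 times and WT at 4. CDC20 and DBF2 lay above WT at every time, CLB2 overlapped WT, SIC1 rose above WT from 4 h, and DSE1, DSE2, HTA2 and HTB2 stayed below WT throughout.

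Histone genes were lower, 8 of 11 past the test and 2 higher, and the members fell to very different degrees. HTA2 had 38.1, 36.0, 40.4 and 26.8 TPM in cdc20-1 and 378, 367, 357 and 322 TPM in WT, and fell by 3.31 (SE 0.09, adjusted p = 8.6e-06). HTB2, its neighbour and partner, fell by 3.10, with 70.7 to 97.7 TPM in cdc20-1 and 686 to 767 TPM in WT. The second pair for the same proteins fell much less, HTA1 by 0.63 and HTB1 by 1.12. HHF1 and HHF2, near-identical genes for histone H4 whose reads cannot be cleanly told apart, fell by 1.03 and 1.28. Those that rose were CSE4, the centromeric variant, by 0.60 and HHO1, the linker histone, by 0.27, which centring turned to -0.08. Of 48 G1/S genes 13 rose and 10 fell, with a median of -0.04, and after centring 7 were higher and 25 lower. RNR1, the large subunit of ribonucleotide reductase, fell by 0.82, HO, the mating-type endonuclease, by 2.21, and SVS1 rose by 1.71. Kinetochore genes were higher in 16 of 24, with DAM1 and SPC105 at 1.51 and 1.47, and 9 were higher and 4 lower after centring. Cohesin and condensin genes had a median of -0.04, below the 0.29 of all genes, with 1 higher and 2 lower of 14, and after centring 0 higher and 9 lower, and the cohesin subunit MCD1 fell by 0.79.

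Stress genes rose almost without exception. Among 91 genes listed as stress-induced, 88 rose and 0 fell, with a median of 2.15, and centring left 84 up and 1 down. Their summed level was 28374, 47131, 46689 and 46391 TPM in cdc20-1 at 2, 4, 6 and 9 h and 7840, 9358, 11247 and 9506 TPM in WT. HSP12, a membrane-protecting small heat shock protein, had 3249, 7812, 7788 and 6857 TPM in cdc20-1 and 273, 380.0, 486 and 492 TPM in WT, a rise of 3.93 (SE 0.17, adjusted p = 2.02e-05). HSP26, another small heat shock protein, had 934, 3827, 4384 and 3988 TPM in cdc20-1 and 36.5, 69.8, 128 and 118 TPM in WT and rose by 5.14. NQM1, a transaldolase paralog, had 349, 609, 636 and 662 TPM in cdc20-1, against 12.5, 11.0, 13.8 and 8.37 TPM in WT, a rise of 5.48. CTT1, the cytosolic catalase, rose by 3.51, DDR2 by 4.51 and SPG4 by 5.30. At 2 h the cdc20-1 library was already above every WT library for these genes, and it was lower than the later cdc20-1 libraries. The 3 members that did not pass were SSE1 at -0.34, SOD1 at 0.16 and HXK1 at 0.72.

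The letters AGGGG stand in 70 of the 91 windows of this list (76.9%), in 23.5% of all windows, and in 37.8% of the windows of genes called at least 2-fold higher. Among genes called at least 2-fold lower the share was 16%. Within the list the median difference was 2.19 for the 70 genes with the letters and 1.88 for the 21 without, of which 20 also rose. The windows printed above hold 3 matches for HSP12, 3 for CTT1 and 2 for NQM1.

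Protein quality control was uneven. BTN2, which sorts misfolded proteins, showed the largest rise of the experiment outside the mating-type genes, with 339.8, 1393, 2081 and 2469 TPM in cdc20-1 and 13.2, 18.8, 39.5 and 17.3 TPM in WT (5.87, SE 0.36, adjusted p = 5.06e-05). HSP42, a small heat shock protein that gathers aggregates, rose by 3.69, HSP104, the disaggregase, by 2.24 and HSP82, the inducible Hsp90, by 2.40. The constitutive forms did not follow. HSC82, the other Hsp90, lay at -0.39 without passing, and SSA2, an Hsp70, fell by 0.95, with the caution that SSA1 and SSA2 are near-identical in sequence. Of the 19 Hsf1 chaperones 11 rose and 1 fell (10 and 3 after centring). In the proteasome 16 of 33 genes rose and 0 fell at a median of only 0.23, below that of all genes, and 5 were higher and 5 lower after centring. RPN4, the transcription factor of proteasome genes, rose by 2.30, with 150.1 to 522 TPM in cdc20-1 at the matched times and 59.1 to 95.8 TPM in WT. The antioxidant genes SRX1 (sulfiredoxin) and TSA2 (a peroxiredoxin) rose by 4.37 and 2.05, and TRX1 fell by 0.56.

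Genes of respiration and of carbon stores rose as groups. All 34 nuclear genes of the respiratory chain and ATP synthase were higher (median 1.31), also after centring, as were all 14 of gluconeogenesis and the glyoxylate cycle (median 1.72, 13 after centring) and all 18 of trehalose and glycogen metabolism (median 1.23, 16 after centring). SDH2, a subunit of succinate dehydrogenase, had 276, 346, 384 and 441 TPM in cdc20-1 and 56.2, 55.7, 60.5 and 42.8 TPM in WT (2.72, SE 0.17). MDH2, the cytosolic malate dehydrogenase of gluconeogenesis, rose by 3.06, and FBP1, the fructose bisphosphatase, by 1.93 although it reached only 35.6 TPM at 9 h. In the TCA cycle 17 of 20 genes rose and 3 fell. Glycolysis had 7 of 21 genes higher and 2 lower, a smaller share higher than among all genes, and 6 higher and 8 lower after centring. ENO1 rose by 2.43, with 2764 to 4157 TPM in cdc20-1 and 441 to 731 TPM in WT. ENO2, the other enolase, had 5339.9, 4213, 2716 and 1828 TPM in cdc20-1 at 2, 4, 6 and 9 h and 4899, 5568, 6103 and 5805 TPM in WT, and did not pass the test over all hours (-0.78, adjusted p = 0.0795). PDC6, the minor pyruvate decarboxylase, rose by 5.07, with 49.3 to 155 TPM in cdc20-1 at the matched times and 1.63 to 2.61 TPM in WT. HXT1, a low-affinity glucose transporter, fell by 1.68, and HXT5, a transporter of slow-growing cells, rose by 2.84.

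**Figure D3:**
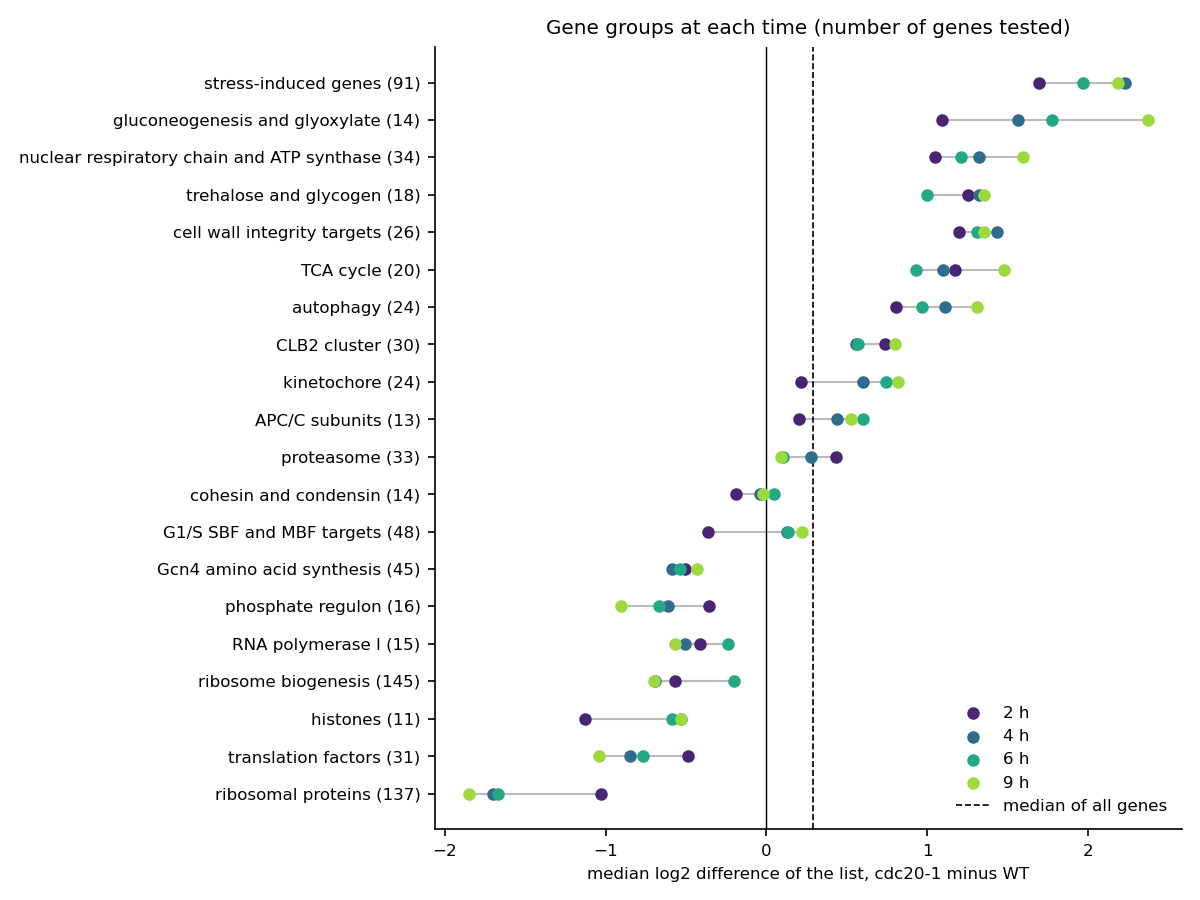
Median log2 difference, cdc20-1 minus WT, of 20 gene groups at 2, 4, 6 and 9 h, with the number of genes tested in brackets and the dashed line at the median of all genes over the 4 times (0.29). Stress-induced genes lay between 1.70 and 2.23 at the 4 times and gluconeogenesis genes between 1.09 and 2.37, and ribosomal proteins lay between -1.85 and -1.03.

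Genes of the translation machinery went the other way. Of the 137 ribosomal protein genes 132 fell and 1 rose, with a median of -1.56 that deepened from -1.03 at 2 h to -1.70, -1.67 and -1.85 at 4, 6 and 9 h. RPS22A was the lowest, with 783, 417, 401 and 335 TPM in cdc20-1 and 2244, 2109, 2052 and 2139 TPM in WT (-2.22, SE 0.20, adjusted p = 0.000186). RPL15B, a minor copy of its pair, rose by 0.66, with 92.3 to 109 TPM in cdc20-1 and 60.1 to 68.5 TPM in WT. Translation factors fell in 26 of 31, TEF4 and EFT2, both elongation factors, by 1.56 and 1.58, with EFT2 near-identical to another copy. TIF4632, an initiation factor subunit, and CAM1 rose by 0.56 and 0.27, and CAM1 lay at -0.08 after centring.

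Ribosome biogenesis genes fell in 107 of 145, and 3 rose, with a median of -0.55, smaller than that of ribosomal proteins. DBP2, an RNA helicase, fell by 2.14, and NOP1, the methylase of box C/D particles, had 365, 286, 334 and 266 TPM in cdc20-1 and 801, 776, 747 and 802 TPM in WT. The 3 that rose were NOP7, UTP22 and NSA1, by 0.95, 0.89 and 0.69. The group median was -0.57, -0.69, -0.20 and -0.70 at 2, 4, 6 and 9 h, so the 6 h pair stood apart from its neighbours. RNA polymerase I genes fell in 9 of 15, RPA190, the largest subunit, by 1.33, and those of RNA polymerase III and its factor TFIIIC fell in 7 of 21 and rose in 4, with 14 lower and 2 higher after centring. Those that rose include the transcription factor subunits BRF1 by 1.27 and TFC4 by 1.93. The letters GATGAG, known as the PAC element of ribosome assembly genes, stand in 59.3% of the biogenesis windows and in 18.4% of all.

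**Figure D4:**
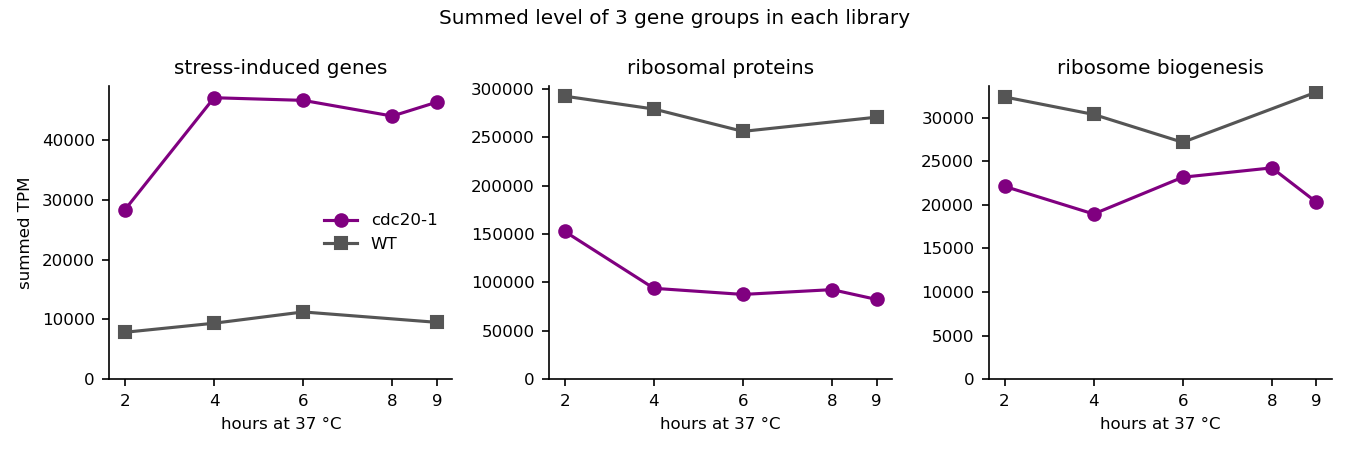
Summed TPM of stress-induced genes (91), ribosomal protein genes (137) and ribosome biogenesis genes (145) in each library against hours at 37 °C. At 9 h the stress-induced genes summed to 46391 TPM in cdc20-1 and 9506 TPM in WT, and the ribosomal protein genes to 82397 TPM in cdc20-1 and 270993 TPM in WT.

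Nutrient regulons changed each in its own way. The amino acid genes under Gcn4 fell in 27 of 45 and rose in 5, LEU9, a leucine synthesis enzyme, at -1.99 with 31.4 to 62.3 TPM in cdc20-1 and 167 to 181 TPM in WT, and HIS4 at -0.86. GCN4 itself lay at -0.21 without passing. The phosphate regulon fell in 9 of 16 and rose in 0. PHO84, the high-affinity phosphate transporter, had 449.7, 461, 432 and 273 TPM in cdc20-1, against 1211, 1041, 965 and 1216 TPM in WT (-1.48, SE 0.18), and SPL2 fell by 2.44. Nitrogen-regulated genes rose in 17 of 25 and fell in 3 (13 and 6 after centring), with the ammonium permease MEP1 at 2.72 and the proline oxidase PUT1 at 3.44. The iron regulon rose in 12 of 20 and fell in 1 (8 and 2 after centring), TIS11, an RNA-binding protein of iron saving, by 1.72, whereas FET3, the iron oxidase, fell by 1.01. Purine synthesis genes rose in 11 of 17 and fell in 3, and 7 were higher and 6 lower after centring. Ergosterol genes rose in 10 of 26 and fell in 1, with a median of 0.19, below that of all genes, and 6 were higher and 8 lower after centring.

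Cell wall integrity targets rose in 23 of 26 and fell in 0, with a median of 1.203. GSC2, the inducible glucan synthase, had 321, 503, 485 and 421 TPM in cdc20-1 and 47.0, 67.8, 72.1 and 58.2 TPM in WT (2.80, SE 0.08, adjusted p = 8.6e-06). Autophagy genes rose in 21 of 24, ATG8, which builds the autophagosome membrane, by 3.11 and its kinase ATG1 by 2.48. In the DNA damage list 12 of 18 rose (9 higher and 4 lower after centring), among them RNR4, a small subunit of ribonucleotide reductase, with 1289.8 to 1516 TPM in cdc20-1 at the matched times and 578 to 664 TPM in WT, and RNR1 was the 1 that fell. Of the 17 meiosis genes 15 rose (8 after centring), but at low levels, with IME1, the inducer of meiosis, at 117 TPM in cdc20-1 at 9 h and the other 16 at 60.6 TPM or below in every library of the experiment. In the Ras/PKA and TORC1 list 16 of 33 rose and 5 fell, near the shares of all genes, and after centring 12 were higher and 13 lower. BCY1, the inhibitory subunit of protein kinase A (PKA), had 302, 365, 328 and 354 TPM in cdc20-1 and 156, 166, 182 and 175 TPM in WT (0.98, SE 0.09). PDE1, a cAMP phosphodiesterase, rose by 2.88, the kinases YAK1 and RIM15, which PKA holds back, by 1.86 and 1.08, and RAS1 fell by 0.89.

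Differences were already present at 2 h, and few genes passed a test of steady change over the 4 pairs. With so few pairs, genes that did not pass cannot be called unchanged after 2 h. The share of genes at least 2-fold higher was 16.4% at 2 h and 28.8% at 9 h, and the share at least 2-fold lower 3.76% and 7.39%. A test of the slope of the difference with time called 9 of 6441 genes (0.14%), 8 of them rising (0.124%) and 1 falling (0.0155%), while 1545 had an unadjusted p under 0.05. The called set was not stable, and it held 20, 2 and 1 genes without the pair at 2, 4 or 6 h and 0 with a pseudocount of 0.1, without a filter or without a variance trend. It included 2 open reading frames inside the ribosomal DNA, TAR1 and YLR154W-A. TAR1 had 4832, 7929, 13570.0 and 48693 TPM in cdc20-1 at 2, 4, 6 and 9 h and 3226, 2935, 2336 and 1542 TPM in WT. The ribosomal RNA share of the deposited TPM was highest in cdc20-1 at 9 h, as given above, and its part in these values was not tested. ARG1, an arginine synthesis gene, had 33.3, 48.0, 72.4 and 77.9 TPM in cdc20-1 and 127, 81.5, 55.6 and 33.3 TPM in WT, and its difference changed by 0.44 per hour. ROQ1, a stress-induced regulator of protein degradation, stood at 3.50, 3.99, 4.50 and 5.30 above WT on the log2 scale at the 4 times.

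cdc20-1 was also set against libraries labelled WT in the Bcy1 series, which shares no library with the experiment above. Its 5 pairs of cdc20-1 and libraries labelled WT came from acetic acid-supplemented medium, with auxin added after 2 h, from 1 time course at 2, 4 and 6 h and from another at 4 and 6 h. These libraries were labelled total RNA and those of the cdc20-1 experiment polyA RNA, whereas by the methods of the study mRNA was also enriched in cultures of this kind, so the RNA type is not settled. Ribosomal RNA took 10.3% to 15.8% of the deposited TPM in the 5 cdc20-1 libraries and 10.1% to 16.7% in the 5 libraries labelled WT. In the second cultures 1645 of 6075 genes were higher (27.1%) and 656 were lower (10.8%) by the same test, 37.9% together, with a median of 0.18. Over the 6033 genes tested in both, the differences had a Pearson correlation of 0.777. Of the 2789 genes called higher in the first cultures 1496 were called higher in the second (53.6%, or 91.4% of the 1637 called there), and 22 were called lower. Of the 1195 called lower 475 were called lower again (39.7%, or 72.9% of 652), and 1 was called higher.

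**Figure D5:**
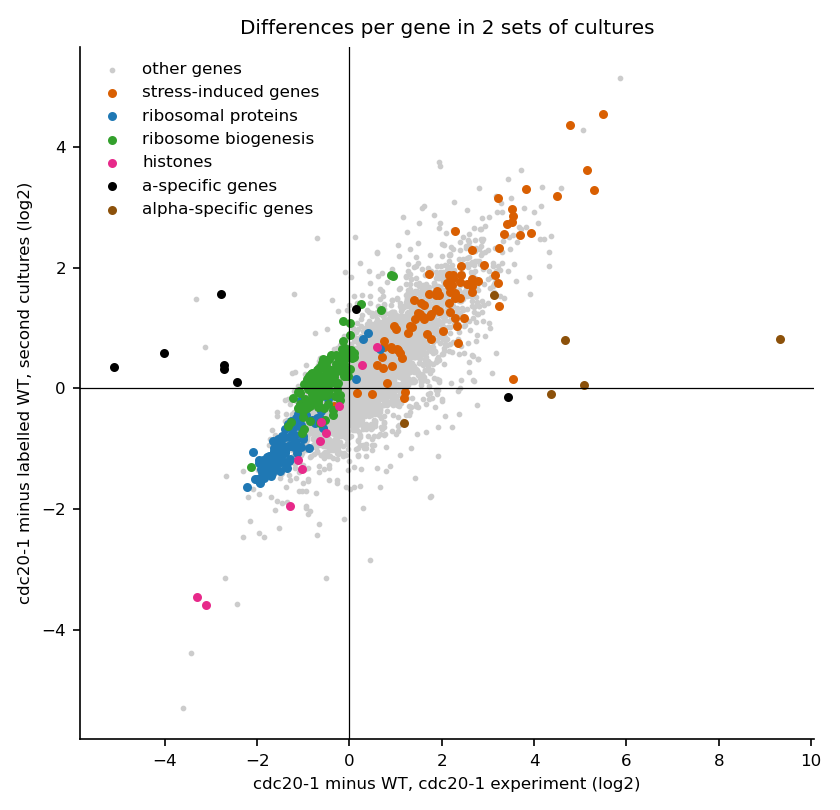
Log2 difference per gene in the cdc20-1 experiment (x axis, cdc20-1 minus WT over 4 pairs) and in the second cultures (y axis, cdc20-1 minus the libraries labelled WT over 5 pairs), with 6 gene groups coloured. Pearson's correlation over 6033 genes was 0.777, stress-induced genes lay high on both axes, and ribosome biogenesis genes had medians of -0.55 and 0.11.

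Many of the genes described above were also called in the second cultures, where both sides expressed alpha-specific genes. DSE2, DSE1, HTB2 and SPL2 fell there, with differences of -5.29, -4.39, -3.59 and -3.57, and BTN2, NQM1 and HSP26 rose by 5.13, 4.54 and 3.62. CDC20 rose by 2.38 and DBF2 by 3.15, and CLB2 lay at 0.43 without passing. Of the stress list 78 of 91 rose (median 1.42), and ribosomal protein genes were lower in 127 of 137 (median -1.12). Of the ribosome biogenesis genes 12 of 145 were higher and 8 lower, so most did not pass, with a median of 0.11 beside 0.18 for all genes of that set. The phosphate regulon was lower in 9 of 16 in the first cultures and in 12 of 16 in the second, where 1 was higher. Its member PHO89, a sodium-phosphate symporter, lay at 0.46 without passing in the first cultures and fell in the second, at -2.84. SUL1, a sulfate permease, lay at 1.74 in the first and -1.80 in the second, past the test in both. Whether the 2 sets of cultures differ for a gene or group was not tested. The media, the ribosomal RNA shares and, by expression, the mating type on the WT side differ between them and cannot be told apart.

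A further set of values came from the AID-BCY1 strains at 2 h, before auxin, in which cdc20-1 carried the MATa pattern and the library labelled WT the MATalpha one. There are 2 pairs and no test. DSE2 lay at -4.97 and -4.58 in cdc20-1 AID-BCY1 against WT AID-BCY1, HTB2 at -3.86 and -4.08, HSP12 at 3.65 and 3.44, BTN2 at 4.60 and 4.87 and CDC20 at 2.16 and 2.34. Of the 475 genes called lower in both earlier sets 412 (86.7%) were lower in both of these pairs, against 26.3% of all tested genes, and of the 1496 called higher 1146 (76.6%) were higher in both, against 40.2% of all. Ribosomal protein genes were lower in both pairs in 118 of 137 and stress-induced genes higher in 63 of 91, with medians of 0.78 and 0.86. Ribosome biogenesis genes went the other way from the first cultures, and were higher in both pairs in 115 of 145 and lower in both in 8. Their medians were 0.43 and 0.52, against -0.57 at 2 h in the first cultures. Not all differences were seen here. MEP1 lay at 0.07 and -0.16 at 2 h, and ESP1 at 0.02 and 0.74. The rise of MEP1 was 2.72 over all times of the first cultures and 2.10 over those of the second. Some groups that rose in the first cultures did not rise in both pairs. Medians in the AID-BCY1 pairs were -0.07 and 0.08 for trehalose and glycogen genes, against 1.26 at 2 h in the first cultures. For autophagy genes they were -0.16 and 0.22, against 0.805 at 2 h, and for cell wall integrity targets -0.39 and 0.59. Nuclear respiratory chain genes were higher in both pairs in 27 of 34.

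The metaphase arrest was last set against the anaphase arrest of cdc15-2 (A2596), measured with its own WT at the same 4 hours. cdc15-2 was labelled MATa, with leu2-3 and ura3, trp1-1, omns and ade1, and lacks the kinase of mitotic exit that acts after Cdc20. The difference between the 2 effects passed the test in 723 of 6396 genes (11.3%), 591 more positive in cdc20-1 (9.24%) and 132 more negative (2.06%). The total was 390, 408 and 402 without the cdc20-1 pair at 4, 6 or 9 h, 454 and 474 without the cdc15-2 pair at 4 or 6 h, and between 652 and 1039 without any other pair. The counts without the open reading frames inside ribosomal DNA, which reached 21.0% of the total in cdc15-2 at 9 h, were 434 more positive and 224 more negative. BTN2 rose by 5.87 in cdc20-1 and lay 1.80 above WT in cdc15-2, a difference of 4.07 (SE 0.54, adjusted p = 0.0015). DBF2 differed by 2.07, ESP1 by 1.57, BUB1 by 1.70 and DAM1 by 1.27, each more positive in cdc20-1. HTA2 and HTB2 were more negative in cdc20-1, at -1.43 and -1.06, as were HXT1 at -1.97 and the G1 cyclin gene CLN3 at -0.86. CUP1-1, a metallothionein gene in a repeated array with identical copies, differed by 4.47, with 703 to 3971 TPM in cdc20-1 at the matched times and 106 to 397 TPM in WT. For DSE1 and DSE2 (0.70 and 0.51), CDC20 (0.48), SWI5 (-0.10) and SIC1 (-0.58) the difference between the arrests did not pass, with standard errors of 0.22 to 0.34. Of the stress-induced genes 18 of 91 were more positive in cdc20-1 and 0 more negative, and of the ribosomal proteins 22 of 137 were more negative and 1 more positive. cdc20-1 and cdc15-2 also differ in mating type and in the strain they came from, which cannot be told apart from the stage of arrest.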

How the data were processed

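Poly(A) RNA was sequenced from cdc20-1 and WT cells, per the labels, 1 library per strain and time. The submitters' processing notes name STAR 2.5.3a, RSEM 1.3.0 and the build sacCer3. The authors deposited log2 of TPM with an offset of 1 for 7130 rows. Columns were matched to samples by their names, and 0 columns were left unmatched. The deposited log2 values were turned back to TPM and rescaled to 1000000 over 6685 nuclear open reading frames, with log2(TPM + 1) taken again. Genes with a mean under 1 were left out. TPM keeps no read depth, so precision rests on the spread between libraries.

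Differences were fitted with limma 3.58.1 in R 4.3.3, with the hour as a block and a variance trend, and p-values were adjusted by Benjamini-Hochberg over all genes tested, with a threshold of 0.05. Fits were run on simulated data with noise drawn separately for each library and few changed genes. That setting does not cover libraries of a strain that share a culture, nor a change in most genes. The same fit was used for the slope with time, for the 5 pairs of second cultures, for the cdc20-1 effect minus the cdc15-2 effect and for WT against WT. The cdc20-1 library at 8 h entered only an alternative in which the WT libraries of the cdc15-2 experiment were its partners. The block was kept from the design. The deviations of the cdc20-1 and WT libraries of the same hour from their strain means correlated at 0.108, 0.0661, 0.0875 and 0.026 at 2, 4, 6 and 9 h.

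Genes were named by a fixed rule, which takes the mating-type and cyclin lists, preset genes and the 3 largest and 3 smallest differences of each other list, and the 10 largest increases and decreases among called genes of each test whose pairs all had the same sign. The text names a part of these, and the members and lists were chosen with earlier results of these data known. Genes with a copy of at least 95% identity over 80% of their length (BLAST 2.17.0) are marked as uncertain, and whether counting used strand is not given in the sources used here. Promoter windows were cut from the RefSeq R64 genome, and motifs were searched on both strands. Alternatives were another pseudocount, other filters, centring, the deposited values without rescaling, no variance trend, no block, other WT partners, a common fit with the cdc15-2 experiment and each pair left out. Further rescalings, without open reading frames inside ribosomal DNA and over genes other than ribosomal proteins, were chosen after seeing the data. Some items are not reported here.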

Additional observations from a re-analysis of the deposited data

Results flagged for a closer look

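The cdc20-1 effect and the cdc15-2 effect, each against its own WT at the same 4 hours, differed in 723 genes by a limma test of the difference itself (adjusted p under 0.05). The values below are the cdc20-1 effect minus the cdc15-2 effect on the log2 scale, for genes named above that passed this test. Named genes that did not pass it are left out. Among cell cycle and chromosome genes the difference was 2.07 for DBF2, 1.57 for ESP1, 1.70 for BUB1, 0.83 for MAD1, 0.82 for CDH1, 1.59 for CLB6, 1.27 for DAM1, 1.28 for SPC105, 2.57 for SVS1, 1.24 for SCW11 and 0.67 for HHO1. It was -0.86 for CLN3, -1.43 for HTA2, -1.06 for HTB2 and -0.74 for HHF2. Among stress and chaperone genes it was 4.07 for BTN2, 3.16 for NQM1, 2.75 for HSP26, 1.55 for HSP12, 1.75 for HSP42, 1.28 for HSP104, 1.82 for HSP82, 2.80 for ROQ1, 1.87 for GSC2, 1.49 for ATG1, 0.86 for RNR4 and 4.47 for CUP1-1. Among genes of carbon and nutrient use it was 3.35 for PDC6, 1.64 for ENO1, -1.97 for HXT1, 2.27 for MEP1, 2.21 for PUT1, 2.10 for TIS11, -1.30 for LEU9 and -1.12 for SPL2. Among genes of ribosomes and transcription it was -1.41 for RPS22A, 0.64 for TIF4632, 1.73 for NOP7, 1.27 for UTP22, 0.85 for NSA1 and 1.65 for TFC4.

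Mating-type genes differed as well, as the labelled types of cdc20-1 (MATalpha) and cdc15-2 (MATa) differ. The difference was -4.28 for STE2, -2.77 for MFA1, -5.32 for MFA2, -2.79 for STE6, -3.07 for BAR1, -3.97 for AGA2, 2.54 for AFB1, 3.83 for STE3 and 7.79 for MF(ALPHA)1.

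The open reading frames encoded in mitochondrial DNA entered no comparison, since their transcripts are largely without the poly(A) tails by which this library type selects. Their summed level was 35.2, 47.6, 57.2, 66.2 and 101 TPM in cdc20-1 at 2, 4, 6, 8 and 9 h, against 22.4, 24.1, 27.1 and 24.2 TPM in WT at 2, 4, 6 and 9 h, so every cdc20-1 library lay above every WT library. The nuclear genes of the respiratory chain were higher in cdc20-1 in the same libraries.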

How the results depend on the processing

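The count of changed genes between cdc20-1 and WT stayed between 3255 and 4512 when a pair was left out, against 4166, and its split was the part that moved. Centring gave 1907 higher and 2260 lower genes, and rescaling over genes other than ribosomal proteins gave 2099 lower. Of the 4166 called genes 3126 were called again in the same direction after centring, 0 in the opposite one, and 200 changed sign. Signs turned in named genes with small differences, to -0.0658, -0.0783 and -0.0804 for CDC5, HHO1 and CAM1 after centring and to -0.0148, -0.0302 and -0.0337 after rescaling over genes other than ribosomal proteins, and SGO1 lay at 0.00996 with the WT of the cdc15-2 experiment as partner at 5 times. Without the replicate block 4244 genes were called, 2973 higher and 1271 lower, and 4060 of the 4166 were called again. The pairs share only an hour. The slope with time gave 9 genes, against 0 with a pseudocount of 0.1, 0 without a filter, 0 without a variance trend and 1 to 20 with a pair left out. The difference between the arrests gave 390 to 1039 genes with a pair left out, 349 to 734 more positive and 41 to 305 more negative, and 223 more negative after centring and 224 without open reading frames inside ribosomal DNA. WT against WT gave 0 to 1 genes with a pair left out and 1 with a filter at a mean of 3. The cause of these shifts was not tested. TPM gives no depth, so low genes carry an unknown counting error, and 1 library per strain and time leaves culture and time together.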

Other observations

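Genes of the mating response other than the type-specific ones were also measured. Of the 13 genes of the haploid pheromone pathway 8 were higher in cdc20-1 than in WT and 2 were lower, with a median of 0.46, and 5 were higher and 4 lower after centring. Of 15 pheromone-induced genes 8 were higher and 1 was lower, with a median of 0.49 (6 and 1 after centring). All genes together had 45.8% higher and 18.9% lower and a median of 0.29. Cell wall mannoprotein genes were higher in 14 of 18 and lower in 0, with a median of 1.13. Genes of glycerol and osmotic stress were higher in 6 of 14 and lower in 2, near the shares of all genes, with a median of 0.23, and 6 were higher and 4 lower after centring. Sulfate assimilation and methionine genes were higher in 7 of 23 and lower in 6, with a median of 0.12 (5 and 9 after centring), and in the second cultures 0 were higher and 11 lower.

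The mating-type locus itself was read in the second cultures as a further value on the labels. The alpha1 gene at the locus, MATALPHA1, was at 47.0 to 52.5 TPM in cdc20-1 and 0.175 to 0.725 TPM in WT of the cdc20-1 experiment, and at 41.1 to 49.3 TPM in the libraries labelled WT in the second cultures. In the AID-BCY1 strains at 2 h it was at 0.208 and 0.359 TPM in the libraries labelled cdc20-1 AID-BCY1 and 39.8 and 41.6 TPM in those labelled WT AID-BCY1.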
